A study of Mus musculus with 35 samples.

Results

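Gene expression in mouse retina at 10 weeks of diabetes was set against that in non-diabetic retina over every gene that the authors listed for this contrast. The diabetic group, D10, held 5 samples of wild-type retina labelled as diabetic for 10 weeks with PBS added. The non-diabetic group, ND, held 6 samples of wild-type retina whose label names no PBS, so both groups differ by that addition as well as by diabetes. These 11 samples belong to a series of 35 samples in 7 groups, in which microglia were depleted and allowed to return in other diabetic and non-diabetic mice. Values of 2 repopulated groups are set beside some results, 10-week diabetic retina and non-diabetic retina, each labelled with 2 weeks of DTx and 2 weeks of recovery from it. The 6-week group is labelled diabetic alone, and the 8-week group diabetic with PBS. The series text calls the mice CX3CR1-WT and names ND retina for each time point, whereas a single ND group without a time appears in the labels. The sources used here name no strain, sex or age, and neither the way diabetes was induced nor the number of animals behind each sample. The titles carry running numbers, which run between 2979 and 2983 in D10 and between 3006 and 3035 in the groups other than D10 and D8, the 8-week diabetic group. A difference that follows this numbering cannot be told apart from diabetes.

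All 25655 genes that the authors listed were taken as members, and none was chosen by its value. Of these, 19013 had a p-value and 17317 had an FDR p-value, which is a p-value adjusted for the number of genes by the authors. The 17317 genes are called the tested genes, and a gene was called when its FDR p-value was under 0.05. The authors' deposited table holds a log2 fold change of D10 over ND for each gene and the larger of both group means, with no value per sample and no stated unit. Depth per sample is therefore unknown, the spread within groups could not be examined, and the p-values measure the spread between samples that may not be separate animals. A group mean was read off where several deposited tables that share the group printed the same value. Elsewhere the largest value that those tables allow for the mean is given as "at most". The levels carry no stated unit, so they are compared between groups for 1 gene at a time. Where genes are ranked by level, the rank is on that scale, whose correction for gene length is unknown. Rises and falls are given in log2 units of D10 over ND, and the value after ± is the standard error implied by the deposited p-value.

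Retina holds photoreceptors and several classes of neuron, and its Müller glia and astrocytes support these cells and its vessels. Microglia are the resident immune cells of the tissue, and the vessels form a barrier that limits what passes in from the blood. In diabetes, retinal glia are known to become reactive, leukocytes can adhere to the vessel wall, and the barrier can leak. Cytokines that act through NF-kB, STAT3 and the interferon pathways switch on sets of genes that overlap. A rise of a gene list therefore does not name a single pathway.

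Of the 17317 tested genes, 1212 were called, 968 of them higher in D10 than in ND (5.59%) and 244 lower (1.41%). Among called genes, the rises were larger than the falls. Among genes called higher the median log2 fold change was 1.55, and 649 genes were at least 2-fold higher. Among genes called lower the median was -0.65, and 68 genes were at least 2-fold lower. The median implied standard error was 0.33 for genes called higher and 0.16 for genes called lower. A larger standard error requires a larger change for a call, so these medians depend in part on the threshold. At least 16-fold differences were counted for 97 genes higher in D10 and for 2 genes lower in D10, Gkn3 and the predicted gene Gm44503, which was picked after its value was seen. The median over all tested genes was 0.00, so the fold changes were centred on 0 on the authors' scale.

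The share of genes called varied with their level. Of tested genes ranked by level in 5 equal bins, in the lowest, 3.67% were called higher and 0.433% lower, with a median implied standard error of 0.69 log2. In the next bin, 10.2% were called higher and 1.79% lower, at a median standard error of 0.24. In the highest bin, 3.12% were called higher and 1.73% lower, at a median standard error of 0.12. The median rise of the called genes was 2.53 log2 in the lowest bin and 0.77 log2 in the highest. With the larger standard errors of the lowest bin, only larger changes can be called there, so this difference follows in part from the threshold. At the threshold stood Gpr101, an orphan receptor, with a log2 fold change of -1.17 ± 0.40 in the authors' deposited table (FDR p = 0.0499). Just outside it stood Fdft1, the squalene synthase gene, at -0.29 ± 0.10 in the authors' deposited table (FDR p = 0.0501).

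**Figure D1:**
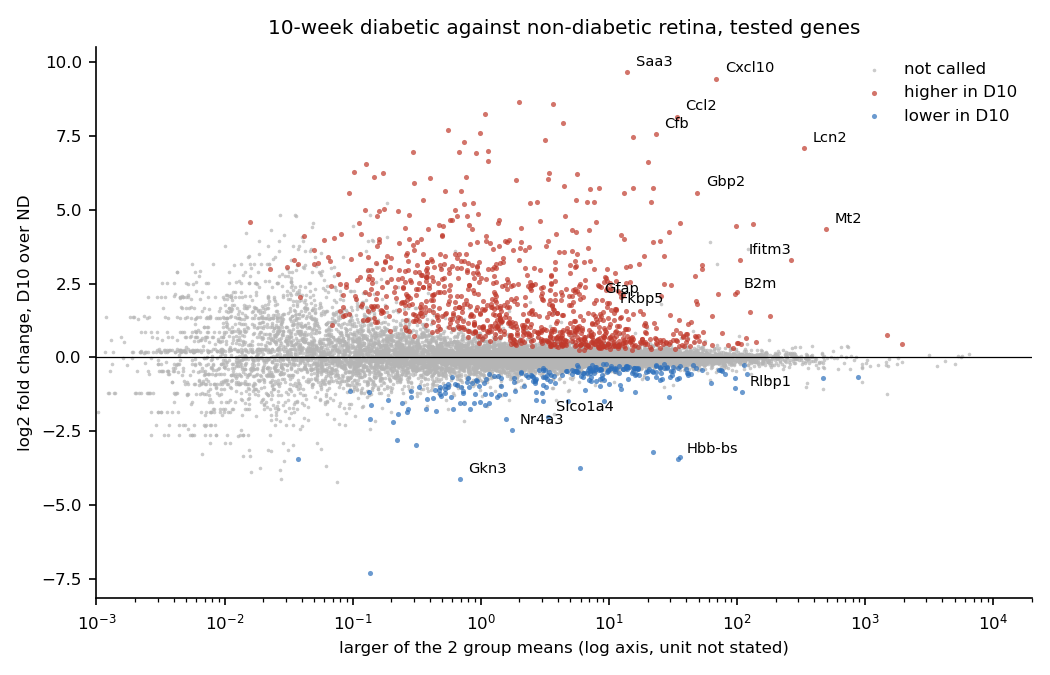
Each point is 1 tested gene, with the larger of both group means on a log horizontal axis (unit not stated) and the log2 fold change of D10 over ND on the vertical axis. Red points were called higher in D10, blue points lower and grey points were not called; 27 genes with a level under 0.001 lie left of the axis. The red points spread up to Saa3 at 9.66, while only 2 blue points lie under -4.

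Gene lists for pathways and cell types were described by their counts. Each count is to be read against 5.59% of all tested genes called higher and 1.41% called lower. Some genes belong to several lists, so the counts of different lists are not separate results. Of the 1447 tested genes in 59 lists, 339 were called higher and 61 lower, which left 629 higher and 183 lower genes in no list. The lists with the highest medians were those of interferon-inducible GTPases, CC chemokines, acute phase proteins and antiviral genes. The lists of retinal neurons lay near 0. A lower level of a cell type's genes in a whole tissue cannot be told apart from fewer cells of that type.

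**Figure D2:**
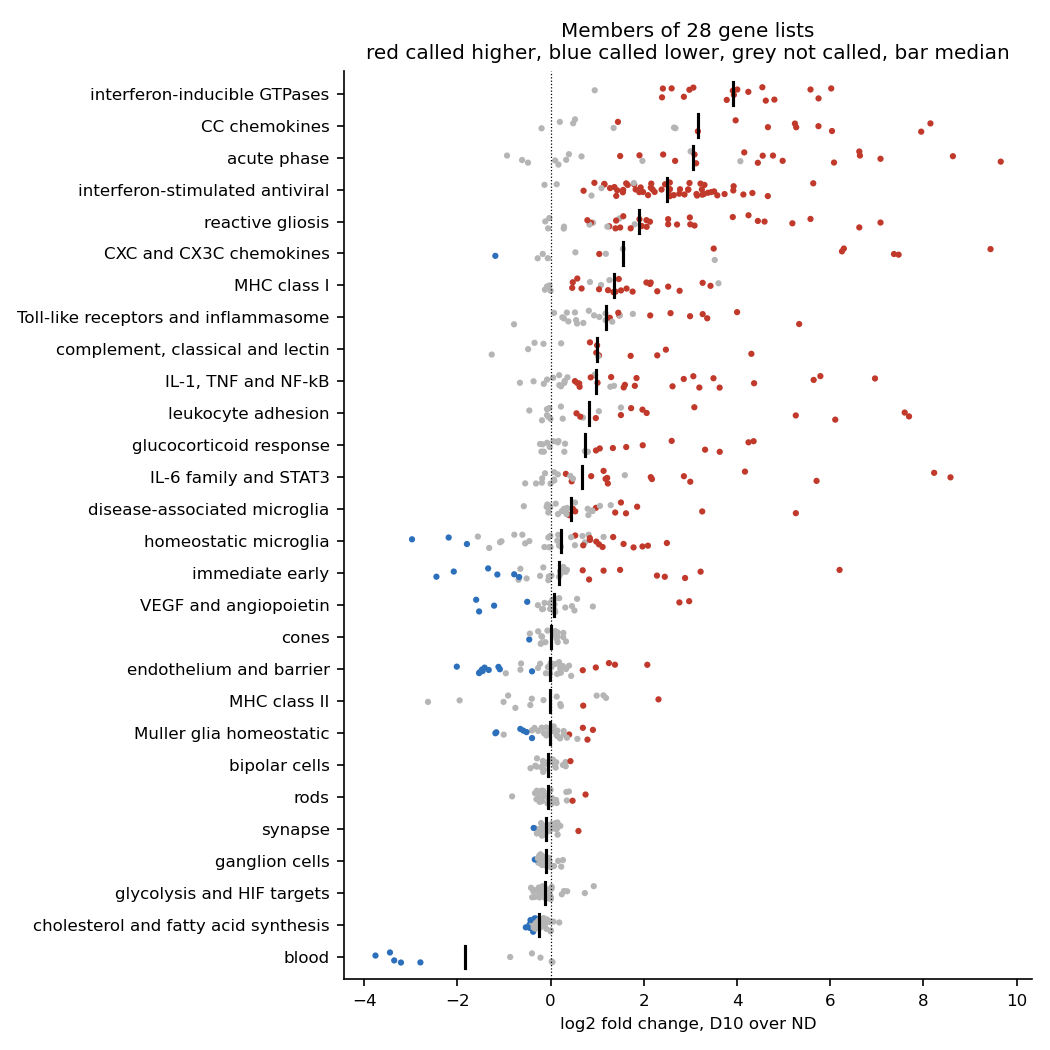
Each point is 1 tested member of 1 of 28 gene lists, placed by its log2 fold change of D10 over ND, with the list's median as a black bar and the median of all tested genes as a dotted line. Red members were called higher, blue lower and grey not called. The interferon-inducible GTPases have the highest median of these lists at 3.92, the blood list the lowest at -1.83, and the neuron lists stay close to 0.

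Acute phase genes encode proteins that liver and inflamed tissue release in response to cytokines. Of 28 tested members, 17 were called higher and none lower, against 5.59% of all tested genes called higher, and the median log2 fold change was 3.05. Lcn2 (chr2:32274645-32278264, GRCm39), whose product lipocalin 2 binds bacterial iron carriers, had a mean of 333 in D10 and at most 2.43 in ND in the authors' deposited table. Lcn2 rose by 7.08 ± 0.58 in the authors' deposited table (FDR p = 1.02e-29), with the smallest p-value of all genes. Saa3 (chr7:46361422-46365124, GRCm39), a serum amyloid A made outside the liver, had a mean of 13.9 in D10 and at most 0.0159 in ND in the authors' deposited table. Its rise of 9.66 ± 0.85 was the largest of any tested gene in the authors' deposited table (FDR p = 2.06e-26). Steap4, a metalloreductase of iron and copper, rose by 6.63 ± 0.69 in the authors' deposited table, with means of 20.1 in D10 and at most 0.213 in ND. Serpina3n, a protease inhibitor, had means of 97.7 in D10 and at most 4.42 in ND and rose by 4.45 ± 0.51 in the authors' deposited table. For Cp, the copper-carrying ferroxidase ceruloplasmin, the means were 48.0 in D10 and at most 12.7 in ND and the rise was 1.91 ± 0.26 in the authors' deposited table. The iron-storage gene Fth1 was not called, at 0.39 ± 0.16 in the authors' deposited table (FDR p = 0.146), nor was the transferrin receptor gene Tfrc, at 0.17 ± 0.14. The Serpina3 genes are near copies within their family, as are the Saa genes, and how reads were divided among them is unknown.

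Chemokines draw leukocytes out of the blood, the CC family mainly monocytes and lymphocytes, and several CXC members neutrophils. Of 17 tested CC chemokines, 10 were called higher and none lower, with a median of 3.16. Ccl2 (chr11:81926397-81928279, GRCm39), the main monocyte attractant, had means of 34.0 in D10 and at most 0.114 in ND and rose by 8.15 ± 0.93 in the authors' deposited table (FDR p = 1.17e-15). Ccl7 rose by 7.95 ± 1.26, Ccl12 by 5.75 ± 0.70, Ccl3 by 6.04 ± 0.86 and Ccl5 by 5.27 ± 0.65 in the authors' deposited table. Ccl25 and Ccl27a, which guide lymphocytes to gut and skin, were not called, at 0.20 and -0.19 in the authors' deposited table. Of 15 CXC and CX3C chemokines, 7 were called higher and 1 lower. Cxcl10 (chr5:92494497-92496748, GRCm39), an interferon-inducible ligand of CXCR3, had means of 69.0 in D10 and at most 0.129 in ND and rose by 9.44 ± 0.95 in the authors' deposited table (FDR p = 5.47e-20). The neutrophil attractants Cxcl1, Cxcl2 and Cxcl5 rose by 7.47 ± 0.91, 6.25 ± 0.92 and 7.37 ± 1.01 in the authors' deposited table. Cxcl12, the ligand of CXCR4, was the member that fell, with at most 1.20 in D10 and 2.71 in ND and a log2 fold change of -1.19 ± 0.21 in the authors' deposited table. Cx3cl1, the neuronal ligand of the microglial receptor CX3CR1, was not called, at -0.17 ± 0.12 in the authors' deposited table (FDR p = 0.533). Of 16 chemokine receptors, 2 were called higher, beside 5.59% of all tested genes. Among them was Ccrl2, a receptor that presents chemerin, at 2.43 ± 0.54 in the authors' deposited table.

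**Figure D3:**
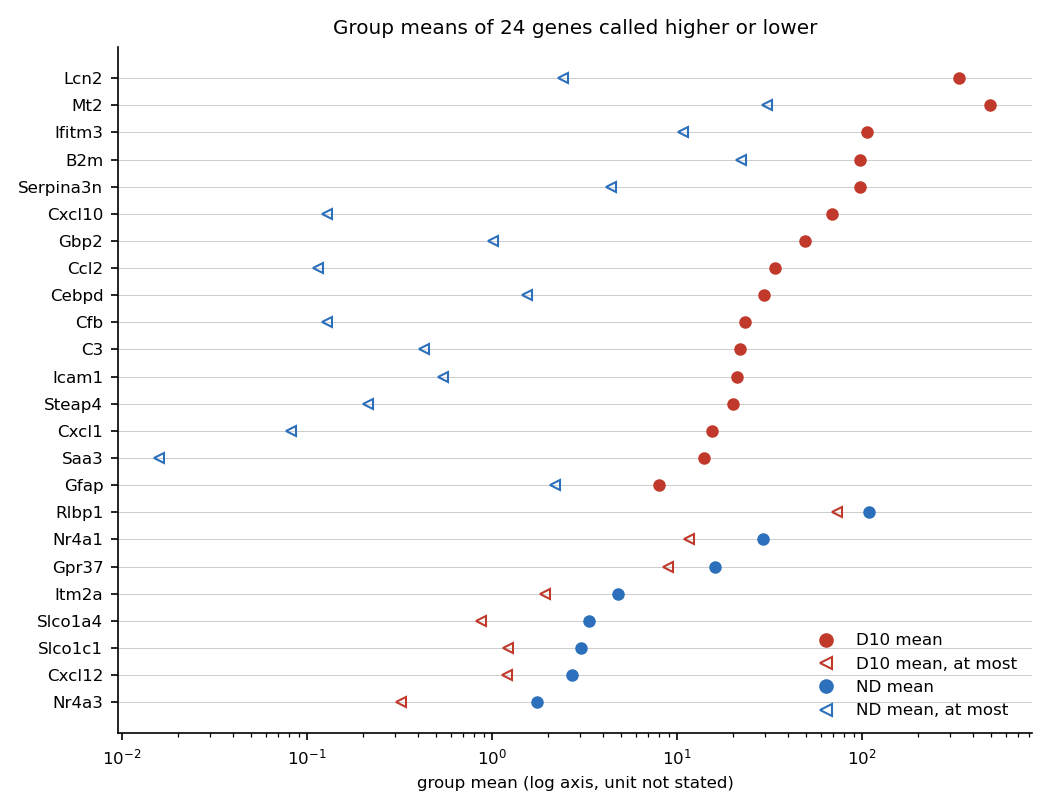
Group means of 24 genes called higher or lower are drawn on a log axis (unit not stated), with D10 in red and ND in blue. A filled circle is a mean that the deposited tables fix, and an open triangle is an upper limit. For Saa3 the D10 mean of 13.9 stands right of an ND mean of at most 0.0159, and for Slco1a4 a D10 mean of at most 0.874 stands left of the ND mean of 3.33.

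Cytokines of the IL-6 family signal through STAT3, which induces its own feedback inhibitor SOCS3. Of 28 tested genes of this list, 15 were called higher and none lower, with a median of 0.68. Among the ligands, Il6 rose by 8.23 ± 1.46, the neutrophil growth factor gene Csf3 by 8.58 ± 1.23, and Lif, a factor that protects photoreceptors, by 5.71 ± 0.78 in the authors' deposited table. The oncostatin M receptor gene Osmr had means of 7.63 in D10 and at most 0.943 in ND, a rise of 3.00 ± 0.41 in the authors' deposited table. Stat3 had 22.3 in D10 and at most 9.71 in ND and rose by 1.18 ± 0.23 in the authors' deposited table (FDR p = 1.27e-05). Its feedback gene Socs3 rose by 2.86 ± 0.39 in the authors' deposited table, with 11.2 in D10 and at most 1.68 in ND. The receptor genes Lifr and Cntfr were not called, at 0.00 and 0.08 in the authors' deposited table, nor was Jak1 at 0.08.

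For the IL-1, TNF and NF-kB list, 22 of 36 tested members were called higher and none lower, with a median of 0.98. NF-kB is a transcription factor that is held inactive by inhibitors such as the product of Nfkbia, itself a target. Nfkbia had means of 48.3 in D10 and at most 13.9 in ND and rose by 1.81 ± 0.25 in the authors' deposited table. The subunit genes Nfkb2 and Relb rose by 3.06 ± 0.47 and 2.62 ± 0.41 in the authors' deposited table. Birc3, an inhibitor of apoptosis induced by TNF, rose by 4.37 ± 0.59, and Tnfaip2 by 5.79 ± 0.79, in the authors' deposited table. Tnfrsf1a, the main TNF receptor gene, had 9.97 in D10 and at most 2.74 in ND in the authors' deposited table, a rise of 1.84 ± 0.28. The cytokine genes Tnf and Il1b, picked after their values were seen, rose by 6.96 ± 1.26 and 3.19 ± 0.77 in the authors' deposited table, at D10 means of 0.680 and 0.790. Tnfaip3, whose product A20 restrains NF-kB, was not called, at -0.37 ± 0.14 in the authors' deposited table (FDR p = 0.119), and neither was the alarmin gene Il33, at 0.30 ± 0.14. Of 28 tested Toll-like receptor and inflammasome genes, 10 were called higher and none lower. Tlr2, a sensor of bacterial lipoproteins, rose by 5.33 ± 0.76, and its co-receptor gene Cd14 by 2.14 ± 0.36, in the authors' deposited table. The inflammasome sensor Aim2 was not called, at 0.38 ± 0.28 in the authors' deposited table (FDR p = 0.58).

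Interferons act through STAT factors on a large set of antiviral genes. In D10, 53 of 58 tested antiviral genes were called higher and none lower, with a median of 2.51. Ifitm3, which blocks the entry of viruses, had means of 106 in D10 and at most 10.7 in ND and rose by 3.29 ± 0.28 in the authors' deposited table (FDR p = 2.18e-27). Isg15, a ubiquitin-like modifier, had 18.7 in D10 and at most 1.69 in ND, a rise of 3.45 ± 0.44 in the authors' deposited table. Bst2, which tethers virus particles to the cell, rose by 2.23 ± 0.26, and Oasl2, of the family of RNA-sensing synthetases, by 2.19 ± 0.26 in the authors' deposited table. Among the 5 members that were not called were Samhd1, at -0.13 ± 0.12, and Trim25, at 0.13 ± 0.13, in the authors' deposited table. Interferon-inducible GTPases attack the vacuoles of intracellular microbes, and 17 of 18 tested members were called higher, with a median of 3.92. Gbp2 had 49.1 in D10 and at most 1.01 in ND and rose by 5.58 ± 0.63 in the authors' deposited table, and Gbp5 rose by 5.75 ± 0.66. Irgm1, a regulator of the family, had 13.5 in D10 and at most 1.83 in ND and rose by 3.06 ± 0.39 in the authors' deposited table. The member not called was Gvin1, at 0.95 ± 0.57 in the authors' deposited table. The Gbp, Tgtp, Ifi200, Ifit and Slfn families contain near copies, so the division of reads among their members is uncertain.

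Of 22 genes that sense nucleic acid or carry the interferon signal, 11 were called higher and none lower. Zbp1, a sensor of Z-form nucleic acid, rose by 4.12 ± 0.53, and the RNA sensor genes Ddx58 and Ifih1 by 2.13 ± 0.31 and 2.41 ± 0.38 in the authors' deposited table. Irf1 had 11.4 in D10 and at most 1.87 in ND, a rise of 2.59 ± 0.41 in the authors' deposited table. Irf7, which amplifies type I interferon, was not called, at -0.20 ± 0.22 in the authors' deposited table (FDR p = 0.762), and Irf3 was not called, at -0.09 ± 0.15. MHC class I molecules display peptides to CD8 T cells, and 20 of 28 tested genes of this pathway were called higher, with a median of 1.37 and none lower. B2m, the invariant chain of class I, had 97.0 in D10 and at most 22.1 in ND and rose by 2.15 ± 0.20 in the authors' deposited table (FDR p = 7.27e-24). H2-K1 had 70.5 in D10 and at most 17.3 in ND, and H2-D1 had 63.8 in D10 and at most 24.1 in ND, in the authors' deposited table. These classical genes rose by 2.13 ± 0.21 and 1.39 ± 0.16 in the authors' deposited table. Psmb8, a subunit of the immunoproteasome that cuts the peptides, rose by 2.52 ± 0.28 in the authors' deposited table. The general chaperones of the pathway, Calr and Canx, were not called, at -0.08 ± 0.19 and -0.12 ± 0.14 in the authors' deposited table. The H2-Q and H2-T genes are near copies of each other, and their separate values are uncertain. Of 16 tested MHC class II genes, 2 were called higher, beside 5.59% of all tested genes. These were the protease gene Ctss at 0.70 ± 0.16 and the co-stimulatory receptor gene Cd40 at 2.32 ± 0.52 in the authors' deposited table. The class II genes Cd74 and H2-Ab1 were not called, at 1.19 ± 0.41 and 0.13 ± 0.29 in the authors' deposited table.

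Promoter sequence was set beside the groups of genes that rose together. Windows of 300 bases, from 250 before to 50 after each gene's start, were taken from RefSeq for GRCm38.p6 and matched by symbol to 13435 of the 17317 tested genes. The interferon response motif (GAAA, any 2 bases, GAAA, on either strand) occurred in 3.44% of all windows. It was found in a window of 3.73% of tested genes with a window, of 91 of 736 genes called higher (12.4%) and of 6 of 186 called lower (3.23%). Among tested antiviral genes 23 of 45 held it, among the GTPases 9 of 10 and among MHC class I genes 5 of 23. The NF-kB motif (GGG, any 2 bases, TTTCC, on either strand) occurred in 1.63% of all windows. It was found for 2.02% of tested genes with a window, 42 of 736 genes called higher (5.71%) and 1 of 186 called lower (0.538%). Of the IL-1, TNF and NF-kB list, 8 of 32 tested members with a window held it, and 3 of the 19 called higher. For acute phase genes it was 4 of 22, for CC chemokines 2 of 12 and for CXC and CX3C chemokines 3 of 11. The gamma-activated site TTCNNNGAA, bound by STAT factors, occurred in 8.30% of all windows and was found for 8.34% of tested genes, 13.7% of genes called higher and 6.99% of genes called lower. The metal response motif TGCACNC occurred in 12.6% of all windows and was found for 15.7% of tested genes, 16.3% of genes called higher and 21.0% of genes called lower. The glucocorticoid motif (AGAACA, any 3 bases, TGT) occurred in 0.414% of all windows and was found for 0.342% of tested genes. It was found for 5 of 736 genes called higher and none of 186 called lower. Of the glucocorticoid list, 1 of 20 tested members with a window held it, and none of the 9 called higher. All motifs were searched on both strands and separately, so that a base may belong to matches of more than 1 motif. These are matches of letters, with no measurement of binding.

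Windows of members with small p-values in their lists are printed to show where a motif lies, in capitals: the interferon motif in Bst2, Gbp2 and B2m, the NF-kB motif in Cxcl1 and the metal motif in Mt2. They are written 5′ to 3′ on the strand of the gene. Bst2 lies on the minus strand at chr8:71537423-71537722 and the others on the plus strand, Gbp2 at chr3:142620413-142620712, B2m at chr2:122147437-122147736, Cxcl1 at chr5:90890995-90891294 and Mt2 at chr8:94172368-94172667 (GRCm38.p6).
Bst2: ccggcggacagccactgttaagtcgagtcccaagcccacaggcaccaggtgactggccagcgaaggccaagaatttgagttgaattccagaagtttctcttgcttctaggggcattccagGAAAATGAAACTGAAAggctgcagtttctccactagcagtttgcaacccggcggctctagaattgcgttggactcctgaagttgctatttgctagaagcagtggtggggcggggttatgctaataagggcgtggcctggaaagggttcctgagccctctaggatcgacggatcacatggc
Gbp2: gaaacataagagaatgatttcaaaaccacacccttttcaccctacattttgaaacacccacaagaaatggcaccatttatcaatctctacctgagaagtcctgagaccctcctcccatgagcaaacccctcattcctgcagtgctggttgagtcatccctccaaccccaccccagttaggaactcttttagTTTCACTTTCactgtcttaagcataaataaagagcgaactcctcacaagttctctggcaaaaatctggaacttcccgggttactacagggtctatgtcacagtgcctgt
B2m: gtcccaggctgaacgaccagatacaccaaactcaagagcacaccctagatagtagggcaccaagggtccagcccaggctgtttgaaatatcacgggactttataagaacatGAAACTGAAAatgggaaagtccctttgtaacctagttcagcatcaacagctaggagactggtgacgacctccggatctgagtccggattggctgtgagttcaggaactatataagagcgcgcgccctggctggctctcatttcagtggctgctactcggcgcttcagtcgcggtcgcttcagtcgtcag
Cxcl1: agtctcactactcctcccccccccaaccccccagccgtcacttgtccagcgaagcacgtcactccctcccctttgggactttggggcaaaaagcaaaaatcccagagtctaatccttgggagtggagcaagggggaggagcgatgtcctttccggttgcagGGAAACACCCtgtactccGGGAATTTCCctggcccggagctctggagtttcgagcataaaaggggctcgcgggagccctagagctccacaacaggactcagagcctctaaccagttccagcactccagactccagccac
Mt2: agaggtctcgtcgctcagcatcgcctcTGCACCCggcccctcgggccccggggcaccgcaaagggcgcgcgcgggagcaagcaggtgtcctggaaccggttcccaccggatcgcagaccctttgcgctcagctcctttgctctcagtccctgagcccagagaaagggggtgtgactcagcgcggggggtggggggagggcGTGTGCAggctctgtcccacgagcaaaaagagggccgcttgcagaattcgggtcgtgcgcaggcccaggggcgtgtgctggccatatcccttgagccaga
Bst2 holds 2 overlapping interferon matches that begin 130 and 124 bases before the start, Gbp2 holds 1 on the opposite strand at 59 bases, and B2m holds 1 at 139 bases. Cxcl1 holds 2 NF-kB matches, at 89 and 71 bases before the start, and Mt2 holds 2 metal matches, at 223 and 50 bases.

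Complement marks debris and microbes for removal, through the classical path that C1q begins and the alternative path that factor B sustains. Of 14 tested classical and lectin genes, 8 were called higher and none lower. The protease genes C1ra and C1s1 rose by 4.31 ± 0.44 and 2.47 ± 0.38 in the authors' deposited table, and C4b, their substrate, had 9.46 in D10 and at most 1.92 in ND. C1qa, which microglia express, had fixed means of 9.16 in D10 and 4.60 in ND and rose by 0.98 ± 0.19 in the authors' deposited table (FDR p = 2.23e-05). C1qb rose by 1.04 ± 0.20, and C1qc by 0.84 ± 0.21, in the authors' deposited table. Of 21 C3 and alternative path genes, 7 were called higher and none lower. Cfb, factor B, had 23.2 in D10 and at most 0.129 in ND and rose by 7.57 ± 0.70 in the authors' deposited table (FDR p = 7.27e-24). C3 itself, the central component, rose by 5.73 ± 0.63 in the authors' deposited table. The regulator genes Clu and Cd59a were not called, at 0.17 ± 0.22 and 0.01 ± 0.12 in the authors' deposited table, nor was Cfp, properdin, at -0.27 ± 0.14.

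Adhesion molecules on activated endothelium capture leukocytes. Of 24 tested genes, 12 were called higher and none lower, with a median of 0.83. Icam1 had 21.1 in D10 and at most 0.540 in ND and rose by 5.26 ± 0.64 in the authors' deposited table (FDR p = 5.03e-14). Vcam1 had 14.5 in D10 and at most 1.69 in ND and rose by 3.09 ± 0.40 in the authors' deposited table. The selectin genes Selp and Sele, which start the rolling of leukocytes, had D10 means of 0.992 and 0.771 in the authors' deposited table, and ND means of at most 0.00392 and at most 0.0164. They rose by 7.60 ± 1.11 and 6.11 ± 0.96 in the authors' deposited table. The junction genes Jam2, Jam3 and Pecam1 were not called, at -0.05, -0.03 and 0.26 in the authors' deposited table.

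Genes of the reactive gliosis list rose broadly, while genes of resting Müller glia moved in both directions. Of 37 tested genes of reactive gliosis, 27 were called higher and none lower, with a median of 1.91. Many of its called members also belong to other lists. Among them, Lcn2, Steap4, Serpina3n and Cp are acute phase members, Gbp2 is a GTPase member, and Psmb8, H2-D1 and H2-T23 are MHC class I members. The gliosis count is therefore not separate from theirs. Gfap, the intermediate filament of astrocytes and of stressed Müller glia, had means of 7.95 in D10 and at most 2.19 in ND and rose by 1.96 ± 0.28 in the authors' deposited table (FDR p = 5.01e-10). Timp1, an inhibitor of matrix proteases, rose by 4.59 ± 0.53, and Edn2, an endothelin of stressed photoreceptors, by 2.71 ± 0.38 in the authors' deposited table. Cebpd, a transcription factor of the acute phase, had 29.6 in D10 and at most 1.54 in ND and rose by 4.25 ± 0.47 in the authors' deposited table. Vim, a second glial filament gene, was not called, at 0.28 ± 0.28 in the authors' deposited table (FDR p = 0.724). Of 30 genes of resting Müller glia, 4 were called higher and 6 lower, with a median of -0.02. Rlbp1 (chr7:79024618-79036796, GRCm39), which carries retinaldehyde, had at most 73.6 in D10 and 108 in ND and fell by 1.17 ± 0.24 in the authors' deposited table (FDR p = 5.73e-05). Gpr37, an orphan receptor of glia, had a log2 fold change of -1.18 ± 0.19 in the authors' deposited table. Kcnj10, the potassium channel that siphons potassium from synapses, had at most 7.19 in D10 and 8.86 in ND, with a log2 fold change of -0.59 ± 0.14 in the authors' deposited table. Glul, glutamine synthetase, was not called, at -0.40 ± 0.15 in the authors' deposited table (FDR p = 0.0842). The members that rose were Crym at 0.69 ± 0.13, Slc14a1 at 0.91 ± 0.20, Sox9 at 0.79 ± 0.24 and Cd9 at 0.40 ± 0.12 in the authors' deposited table. At a threshold of 0.01, 2 of these 4 were called. Of 12 astrocyte genes, Gfap alone was called, and the transporter gene Slc1a2 stood at 0.06 ± 0.14 in the authors' deposited table.

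Microglial genes also split. Of 39 homeostatic microglia genes, 13 were called higher and 3 lower, and 10 of 32 disease-associated genes were called higher and none lower. P2ry12, the purine receptor that steers microglial processes, had at most 0.147 in D10 and 0.447 in ND and fell by 1.80 ± 0.39 in the authors' deposited table (FDR p = 0.000131). Gpr34, a receptor of lysophospholipids, had at most 0.0849 in D10 and 0.309 in ND, with -2.97 ± 0.60 in the authors' deposited table. The third was Fcrls, picked after its value was seen, at -2.19 ± 0.54 in the authors' deposited table. The identity genes Cx3cr1, Tmem119 and Csf1r were not called, at -0.13 ± 0.32, -0.61 ± 0.34 and 0.00 in the authors' deposited table. Csf1r had means of 1.33 in D10 and 1.31 in ND in the authors' deposited table. In contrast Spi1, the master factor of myeloid cells, rose by 2.09 ± 0.35, and Itgam, the CD11b gene, by 1.97 ± 0.34 in the authors' deposited table. Csf1, the ligand of CSF1R, had 5.97 in D10 and at most 1.05 in ND and rose by 2.50 ± 0.34 in the authors' deposited table. Among disease-associated genes Ch25h, which makes an antiviral oxysterol, had 7.61 in D10 and at most 0.223 in ND and rose by 5.26 ± 0.53 in the authors' deposited table. Gpnmb rose by 1.51 ± 0.30, and the lysosomal protease genes Ctsd and Ctsb were not called, at -0.03 ± 0.13 and -0.01 ± 0.14, in the authors' deposited table. Cst7, Clec7a, Itgax, Spp1 and Lpl of this list, picked after their values were seen, were not called either. They stood at 1.29, 1.06, 0.80, 0.29 and -0.09 in the authors' deposited table.

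**Figure D4:**
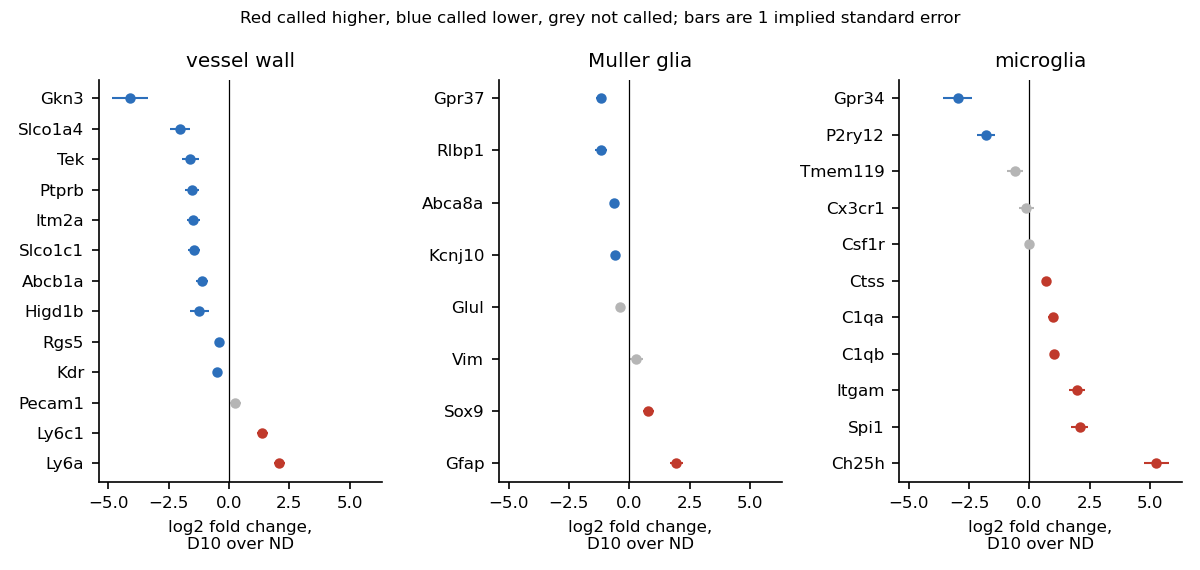
Log2 fold changes of D10 over ND, with bars of 1 implied standard error, are drawn for genes of the vessel wall, of Müller glia and of microglia. Red genes were called higher, blue lower and grey not called. Each panel holds blue, grey and red genes, from Gkn3 at -4.11 to Ly6a at 2.08, from Gpr37 at -1.18 to Gfap at 1.96 and from Gpr34 at -2.97 to Ch25h at 5.26.

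Some markers of blood leukocytes were called higher. Of 18 genes of monocytes and border macrophages, 8 were called higher and none lower, with a median of 1.38. Ms4a6c had 1.22 in D10 and at most 0.148 in ND and rose by 3.00 ± 0.37 in the authors' deposited table, and Fcgr4 rose by 3.02 ± 0.51. Ly6c2, which marks inflammatory monocytes, had 0.198 in D10 and at most 0.0289 in ND in the authors' deposited table, a rise of 2.65 ± 0.86. The macrophage gene Lyve1 was not called, at 0.08 ± 0.23 in the authors' deposited table. Folr2, and Ccr2, which was picked after its value was seen, were not called either, at -0.32 and -0.79 in the authors' deposited table. Of the 18 members, 14 lay above 0 and 4 below it. Of 13 neutrophil genes, 5 were called higher. These were S100a8 at 2.08 ± 0.70, S100a9 at 2.40 ± 0.69, Ngp at 5.01 ± 0.95, Fpr1 at 4.47 ± 0.88 and Fpr2 at 3.22 ± 0.64 in the authors' deposited table. At a threshold of 0.01, 3 of the 5 were called. Csf3r and Retnlg, also of neutrophils, were not called, at -0.18 ± 0.35 and 0.20 ± 0.77 in the authors' deposited table. Of 23 listed T and NK cell genes, 13 were tested and 3 were called higher, and 1 of these at a threshold of 0.01. Cd8a rose by 1.55 ± 0.45 and Lck by 0.98 ± 0.32 in the authors' deposited table, while Cd69, an early activation marker, had a mean of 0.172 in D10 and is listed at 0 in ND. Of 6 tested B cell genes, Jchain was called, at 1.14 ± 0.22, and Cd79a was not, at -0.67 ± 0.54 in the authors' deposited table. Whether leukocytes entered the tissue was not tested.

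In the vessel wall, some genes of the barrier fell while some endothelial surface genes rose. Of 36 tested genes of endothelium and barrier, 5 were called higher and 10 lower, a count of falls to be read against 1.41% of all tested genes. The median of the list was -0.005, with 18 members above 0 and 18 below it. Slco1a4 (chr6:141751166-141801925, GRCm39), an organic anion transporter of the barrier, had at most 0.874 in D10 and 3.33 in ND, with -2.01 ± 0.41 in the authors' deposited table (FDR p = 4.92e-05). Slco1c1, which carries thyroxine, had at most 1.23 in D10 and 3.03 in ND and stood at -1.46 ± 0.26 in the authors' deposited table (FDR p = 1.13e-06). Abcb1a, the efflux pump P-glycoprotein, had at most 0.861 in D10 and 1.85 in ND, with -1.12 ± 0.25 in the authors' deposited table. Itm2a fell by 1.47 ± 0.27, and the transcription factor gene Foxq1 fell by 1.42 ± 0.33, in the authors' deposited table. Sox17 and Lef1, factors of barrier endothelium that were picked after their values were seen, had log2 fold changes of -1.53 ± 0.42 and -1.09 ± 0.30 in the authors' deposited table. Gkn3, a marker of arterial endothelium in mouse brain that was named for its small p-value, had at most 0.0365 in D10 and 0.691 in ND, with -4.11 ± 0.75 in the authors' deposited table. By contrast, Ly6a had 25.6 in D10 and at most 6.01 in ND and rose by 2.08 ± 0.22, and Ly6c1 rose by 1.38 ± 0.24, in the authors' deposited table. The other members that rose were Cd34 at 0.97 ± 0.23, and Emcn and the junction gene Cdh5, picked after their values were seen, at 1.25 ± 0.34 and 0.69 ± 0.23 in the authors' deposited table. The pan-endothelial gene Pecam1 and the glucose transporter gene Slc2a1 were not called, at 0.26 ± 0.22 and -0.06 ± 0.13 in the authors' deposited table. Further members, picked after their values were seen, were not called either. These were Cldn5 at 0.01, Tjp1 at -0.10, Ocln at -0.63 and Mfsd2a at -0.65 in the authors' deposited table.

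Of 24 genes of VEGF and angiopoietin signalling, 2 were called higher and 4 lower, beside 5.59% and 1.41% of all tested genes. Vegfa, the main driver of vessel growth and leak, was not called, with at most 45.3 in D10 and 50.8 in ND and a log2 fold change of -0.18 ± 0.14 in the authors' deposited table (FDR p = 0.592). Pgf, a related ligand, had 2.91 in D10 and at most 0.365 in ND and rose by 2.97 ± 0.47, and Angptl4 rose by 2.76 ± 0.43, in the authors' deposited table. Among receptors, Tek, which binds angiopoietins, had at most 0.360 in D10 and 1.08 in ND and fell by 1.60 ± 0.33 in the authors' deposited table. Its phosphatase gene Ptprb fell by 1.53 ± 0.29, the VEGF receptor gene Kdr fell by 0.50 ± 0.15 and the peptide gene Apln fell by 1.21 ± 0.32 in the authors' deposited table. Of 23 pericyte and mural genes, 1 was called higher and 3 lower. Rgs5 had at most 8.49 in D10 and 10.2 in ND, with -0.40 ± 0.11 in the authors' deposited table, Cspg4 fell by 1.33 ± 0.33 and Higd1b fell by 1.24 ± 0.40, while Mcam rose by 1.45 ± 0.25. Of 47 matrix genes, 9 were called higher and 1 lower. Adamts1, a matrix protease, had 26.8 in D10 and at most 4.74 in ND and rose by 2.48 ± 0.39 in the authors' deposited table. Plat, a plasminogen activator gene, rose by 1.59 ± 0.30 in the authors' deposited table. Col4a1, a basement membrane collagen, was not called, at -0.32 ± 0.48 in the authors' deposited table. The member that fell was Loxl1, picked after its value was seen, at -0.58 ± 0.20 in the authors' deposited table, and it was no longer called when the fold changes were recentred.

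Genes that define retinal neurons were called in small numbers, to be read against 5.59% of all tested genes called higher and 1.41% called lower. Of 31 rod genes 2 were called higher, Guca1a at 0.75 ± 0.16 and Sag at 0.47 ± 0.15 in the authors' deposited table. Gnat1, rod transducin, was not called, with at most 3031 in D10 and 3629.6 in ND and a log2 fold change of -0.27 ± 0.17 in the authors' deposited table (FDR p = 0.463). Rod markers were present in both groups, as retina should have them. Of 18 cone genes 1 was called lower, Pde6h, at -0.46 ± 0.13 in the authors' deposited table, and Arr3, cone arrestin, stood at 0.27 ± 0.21. Of 22 bipolar genes Neto1 was called higher, at 0.43 ± 0.13, and of 33 amacrine and horizontal genes Slc5a7, at 0.49 ± 0.16, in the authors' deposited table. Of 24 ganglion cell genes 1 was called lower, the nicotinic receptor subunit gene Chrna6, at -0.34 ± 0.09 in the authors' deposited table. Slc17a6 and Nefl, further ganglion cell genes, were not called, at -0.17 ± 0.12 and -0.16 ± 0.15 in the authors' deposited table. The list medians were -0.06 for rods, 0.01 for cones, -0.05 for bipolar cells, -0.01 for amacrine and horizontal cells and -0.10 for ganglion cells. Of 40 synaptic genes 1 was called higher and 1 lower, Rims2 at 0.60 ± 0.13 and Shank2 at -0.36 ± 0.11 in the authors' deposited table. Among 16 genes of the response to nerve injury, 6 were called higher. Gadd45b had 30.3 in D10 and at most 5.96 in ND and rose by 2.44 ± 0.37 in the authors' deposited table, Sprr1a rose by 4.67 ± 0.94, and Atf3, a factor of injured axons, by 0.70 ± 0.21.

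Immediate early genes, whose products appear soon after activity or growth factors, moved in opposite directions. Of 31 tested, 9 were called higher and 6 lower. Fosl1 had 5.60 in D10 and at most 0.151 in ND and rose by 6.20 ± 0.86, Maff rose by 3.22 ± 0.55 and the RNA-decay gene Zfp36 by 2.45 ± 0.39 in the authors' deposited table. The nuclear receptor gene Nr4a3 had at most 0.321 in D10 and 1.74 in ND and fell by 2.45 ± 0.31 in the authors' deposited table (FDR p = 4.76e-13). Nr4a1 had at most 11.6 in D10 and 29.2 in ND, with -1.34 ± 0.25, and Egr4 fell by 2.08 ± 0.39, in the authors' deposited table. Sik2, a salt-inducible kinase that cAMP signalling inhibits, had the smallest p-value of all genes lower in D10, with at most 6.14 in D10, 12.4 in ND and -1.08 ± 0.13 in the authors' deposited table. Its relative Sik1 fell by 1.11 ± 0.18, and Drd4, the photoreceptor dopamine receptor gene, fell by 1.02 ± 0.19 in the authors' deposited table. For non-diabetic retina with depleted and returned microglia, which was set against the same ND samples, the authors' deposited table gives -1.60 for Nr4a3, -1.44 for Nr4a1, -2.31 for Egr4, -0.82 for Sik2, -1.06 for Sik1 and -0.56 for Drd4. Both comparisons share the ND samples, and the part of those samples in these values was not tested. Of 22 clock genes 1 was called lower, the repressor gene Nr1d1, at -0.47 ± 0.13, and Per1 and Dbp were not, at -0.17 ± 0.15 and -0.11 ± 0.14 in the authors' deposited table.

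Glucocorticoids are steroid hormones whose receptor induces Fkbp5. Of 23 tested genes of this response, 10 were called higher and none lower, with a median of 0.74. Among its called members, Mt1 and Mt2 are also metallothionein members and Cebpd is a gliosis member. Arrdc2 and Plin4 are also counted in the lists of Txnip and of fat and ketone use. Fkbp5 had 10.4 in D10 and at most 3.48 in ND and rose by 1.62 ± 0.16 in the authors' deposited table (FDR p = 8.75e-21). Map3k6 rose by 3.63 ± 0.48, Plin4 by 1.98 ± 0.34 and Cdkn1a, a brake on the cell cycle, by 2.60 ± 0.46 in the authors' deposited table. Sgk1 and Per1, further hormone targets, were not called, at -0.08 ± 0.15 and -0.17 ± 0.15 in the authors' deposited table. Klf9 and Ddit4 of the same list were not called either, at 0.31 and -0.14 in the authors' deposited table. Metallothioneins bind zinc and copper, and Mt2 had 494 in D10 and at most 30.5 in ND, a rise of 4.36 ± 0.47 in the authors' deposited table (FDR p = 2.59e-17). Mt1 had 263 in D10 and at most 30.5 in ND and rose by 3.32 ± 0.40, and the brain form Mt3 by 0.60 ± 0.16, in the authors' deposited table. In all 5 of 11 genes of metallothionein and zinc transport were called higher and 1 lower, the exporter gene Slc30a10 at -0.68 ± 0.22 in the authors' deposited table. The zinc importer genes Slc39a4 and Slc39a8 rose by 1.78 ± 0.51 and 1.36 ± 0.34 in the authors' deposited table. Txnip, whose product limits glucose uptake and is induced by glucose, had 4.41 in D10 and at most 2.30 in ND and rose by 0.93 ± 0.29 in the authors' deposited table (FDR p = 0.0239). Of 16 genes of its list 5 were called higher, the others being its relatives Arrdc4 at 1.03 ± 0.20 and Arrdc2 at 1.06 ± 0.19, with Klf10 at 0.91 ± 0.23 and Txnrd1 at 0.60 ± 0.12, in the authors' deposited table. Of 30 genes of fat and ketone use 5 were called higher and none lower. Cpt1a, which admits fatty acids to mitochondria, had 46.1 in D10 and at most 41.4 in ND and rose by 0.52 ± 0.13, and Acadm by 0.74 ± 0.14, in the authors' deposited table. Acot1, a thioesterase gene, rose by 0.75 ± 0.25 in the authors' deposited table, and the list also holds Plin4 and Angptl4.

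Genes of energy supply and protein synthesis were called in small numbers, to be read against 5.59% of all tested genes called higher and 1.41% called lower. None of 29 genes of glycolysis and HIF targets and none of 78 ribosomal protein genes was called. Among them Eno1 stood at -0.40 ± 0.15, Pkm at -0.24 ± 0.15 and Gapdh at -0.18 ± 0.15 in the authors' deposited table. Of 32 nuclear genes of oxidative phosphorylation Ndufa1 was called lower, at -0.25 ± 0.08, and of 13 mitochondrial genes mt-Nd4l, at -0.67 ± 0.14, in the authors' deposited table. None of 32 cell cycle genes was called, and Pcna stood at -0.15 ± 0.12 in the authors' deposited table. Of 56 replication-dependent histone genes 1 was called lower, H2bc21, at -0.43 ± 0.14 in the authors' deposited table, and it lost its call when the fold changes were recentred.

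Cholesterol synthesis genes lay lower as a group, by small amounts. Of 37 tested genes of cholesterol and fatty acid synthesis, 10 were called lower and none higher, with a median of -0.24 and 34 members below 0. Hmgcs1, at the entry of the pathway, had at most 22.6 in D10 and 30.6 in ND and fell by 0.45 ± 0.14 in the authors' deposited table (FDR p = 0.0239). Fdps fell by 0.33 ± 0.09, Idi1 fell by 0.45 ± 0.13, Cyp51 fell by 0.39 ± 0.11 and Nsdhl fell by 0.53 ± 0.16 in the authors' deposited table. At a threshold of 0.01, 2 of the 10 were called. The lipogenic regulator Srebf1 and the citrate lyase gene Acly were not called, at 0.19 ± 0.15 and -0.18 ± 0.14 in the authors' deposited table. Among carriers and exporters of lipid, Apod had 5.67 in D10 and at most 0.493 in ND and rose by 3.50 ± 0.48, and the cholesterol exporter gene Abca1 by 0.92 ± 0.13, in the authors' deposited table. The lipid transfer protein gene Pltp fell by 0.97 ± 0.26 in the authors' deposited table.

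Of 33 chaperone and unfolded protein genes, 2 were called higher and 4 lower, beside 5.59% and 1.41% of all tested genes. Hsp90aa1 had at most 297 in D10 and 470.3 in ND and fell by 0.68 ± 0.16 in the authors' deposited table (FDR p = 0.00038). The heat shock genes Hspa1a and Hspa1b, which are near copies, had log2 fold changes of -0.60 ± 0.20 and -0.70 ± 0.20, and Dnajb1 fell by 0.49 ± 0.15, in the authors' deposited table. Bag3, which acts with HSPB8 in the disposal of damaged proteins, rose by 1.49 ± 0.30, and Hspb8 by 0.69 ± 0.19, in the authors' deposited table. Of 26 antioxidant genes 6 were called higher, among them Slc7a11, the cystine importer gene, at 3.69 ± 0.61 and Hmox1, heme oxygenase, at 1.99 ± 0.56 in the authors' deposited table. Of 25 genes of cell death 12 were called higher and none lower. Fas, a death receptor gene, rose by 5.55 ± 0.67, and Mlkl, the effector of necroptosis, by 3.45 ± 0.58, in the authors' deposited table. Bax and Parp1 were not called, at 0.12 ± 0.11 and 0.01 ± 0.12 in the authors' deposited table. Of 28 growth and survival factors 6 were called higher, among them Fgf2 at 1.26 ± 0.24 and Igfbp3 at 2.79 ± 0.34 in the authors' deposited table.

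Several genes in no list had small p-values. Selenbp1, a selenium-binding methanethiol oxidase, had 52.7 in D10 and at most 6.59 in ND and rose by 2.99 ± 0.31 in the authors' deposited table (FDR p = 2.64e-19). Lrg1, a glycoprotein that promotes vessel growth, rose by 5.25 ± 0.62 in the authors' deposited table, with 2.76 in D10 and at most 0.0682 in ND. Pdzph1 rose by 1.21 ± 0.13 in the authors' deposited table. Espn, an actin-bundling protein, had at most 5.39 in D10 and 7.90 in ND and fell by 0.78 ± 0.11 in the authors' deposited table (FDR p = 1.11e-10). Pde8b, a phosphodiesterase of cAMP, fell by 0.70 ± 0.13, Metrn fell by 0.74 ± 0.14 and Ltbp4, a matrix protein that stores latent TGF-beta, fell by 0.86 ± 0.16 in the authors' deposited table. Cerkl, in which mutations cause retinal dystrophy in people, had at most 2.92 in D10 and 3.76 in ND and fell by 0.85 ± 0.23 in the authors' deposited table.

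Genes of blood, of other parts of the eye, of muscle and of myelin were examined beside these results. Their counts are to be read against 5.59% of all tested genes called higher and 1.41% called lower. The hemoglobin genes, markers of red cells, were lower in D10. Hbb-bs fell by 3.45 ± 0.77, Hbb-bt fell by 3.76 ± 0.84, Hba-a1 fell by 3.21 ± 0.80 and Hba-a2 fell by 3.36 ± 0.78 in the authors' deposited table, and the alpha pair are near copies. In repopulated 10-week diabetic retina against the same ND samples, the authors' deposited table gives 0.40 for Hbb-bs and 0.60 for Hba-a1. Over these ND samples, the blood list had medians of -0.83 at 6 weeks, -2.04 at 8 weeks and -1.83 at 10 weeks. Its medians were 0.27 in repopulated 10-week diabetic retina and -0.82 in repopulated ND. In all 5 of 10 tested blood genes were called lower, among them Alas2, at -2.79 ± 0.96 in the authors' deposited table, which lost its call when the fold changes were recentred. Of 29 lens genes 2 were called higher, Lgsn at 3.95 ± 1.25 and Dnase2b at 4.96 ± 1.56 in the authors' deposited table. The crystallin genes were not called, and Cryaa stood at -1.23 ± 1.41, with a standard error about as large as its value, in the authors' deposited table. Against the same ND samples the lens list had medians of 1.82 at 6 weeks, -4.45 at 8 weeks and -0.34 at 10 weeks, with 1.45 in repopulated ND. Of 22 genes of cornea and surface epithelium 4 were called higher, Krt12 at 2.32 ± 0.77, Krt13 at 2.32 ± 0.62, Krt6a at 2.47 ± 0.76 and S100a14 at 2.30 ± 0.59 in the authors' deposited table. Their D10 means ranged from 1.77 for Krt6a to 5.41 for Krt12 in the authors' deposited table. Of 18 pigment epithelium genes Krt18 was called, at 0.53 ± 0.14 in the authors' deposited table, and none of 14 muscle and 12 myelin genes was. Leaving out the members of these 6 lists gave 961 genes higher and 239 lower, and the part of such tissue in other genes was not tested.

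Genes called higher were in places neighbours on a chromosome. In order along the genome, over tested genes, 13 runs of at least 4 consecutive genes were called higher, with 59 genes in all, and no such run was called lower. The longest held 9 genes at chr5:105162016-105760884 (GRCm39), among them Gbp4, Gbp6, Gbp8, Gbp9, Gbp10 and Gbp11. A second guanylate-binding cluster at chr3:142199739-142343769 held Gbp2, Gbp3, Gbp5 and Gbp7. The chemokine genes Ccl2, Ccl7, Ccl11 and Ccl12 formed a run at chr11:81926397-81994226. The peptide-processing genes Psmb9, Tap1, Psmb8 and Tap2 formed one at chr17:34400961-34435295, and H2-Q4 to H2-Q7 one at chr17:35598593-35662749. Other runs held Slfn genes on chromosome 11, Serpina3 genes on chromosome 12, Ms4a and Ifit genes on chromosome 19, Ifitm genes on chromosome 7 and S100a8 and S100a9 on chromosome 3. By chromosome, 8.10% of tested genes on chromosome 17 were called higher and 2.79% on chromosome X. Near copies within a run can share reads, and how the authors divided them is unknown.

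The values at 10 weeks were set beside those at 6 and 8 weeks of diabetes, which the authors compared with the same 6 ND samples. Because the comparisons share ND, their likeness is not a result. The interferon-inducible GTPases had medians of 3.40 at 6 weeks, 2.69 at 8 weeks and 3.92 at 10 weeks. The acute phase list had 2.66 at 6 weeks, 1.96 at 8 weeks and 3.05 at 10 weeks, and the MHC class I list 0.87 at 6 weeks, 0.86 at 8 weeks and 1.37 at 10 weeks. For single genes, Lcn2 stood at 6.30 at 6 weeks, 5.51 at 8 weeks and 7.08 at 10 weeks in the authors' deposited table. Gfap stood at 1.70 at 6 weeks, 1.10 at 8 weeks and 1.96 at 10 weeks, and Rlbp1 at -0.69, -0.62 and -1.17, in the authors' deposited table. P2ry12 stood at -1.08 at 6 weeks, -0.34 at 8 weeks and -1.80 at 10 weeks in the authors' deposited table. Slco1a4 stood at -1.45 at 6 weeks, -0.32 at 8 weeks and -2.01 at 10 weeks in the authors' deposited table. Txnip stood at 1.80 at 6 weeks, 0.43 at 8 weeks and 0.93 at 10 weeks in the authors' deposited table. The time points come from different samples, the 6-week label names no PBS, and differences between times were not tested.

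**Figure D5:**
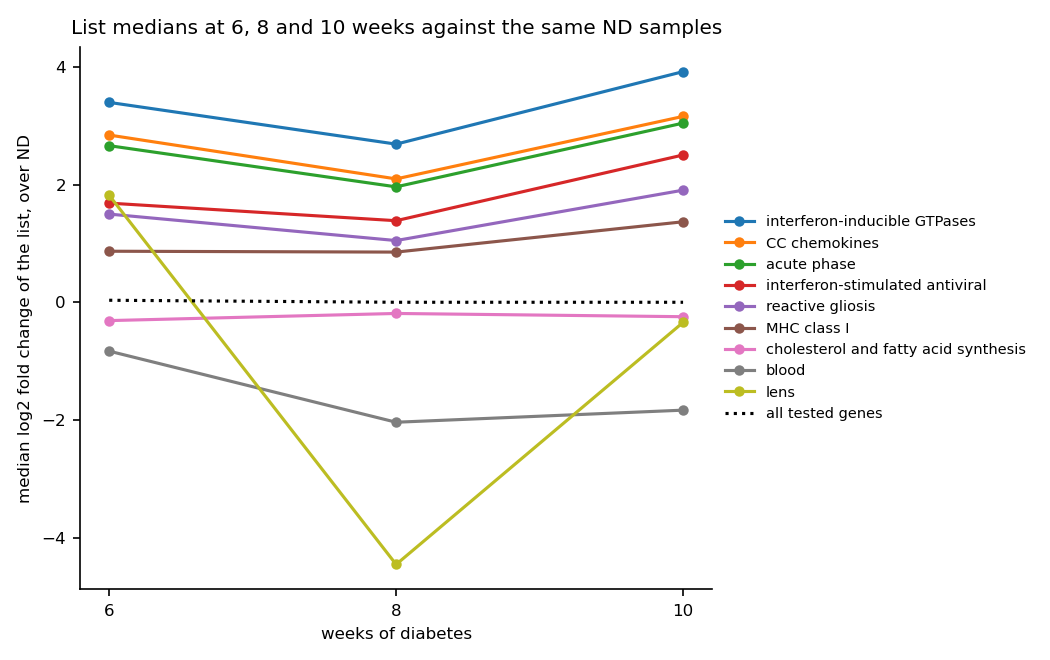
Lines join the median log2 fold change of 9 gene lists over the same ND samples at 6, 8 and 10 weeks of diabetes, and the dotted line is the median of all genes tested at 10 weeks. The 6 lists of interferon, chemokine, acute phase, gliosis and MHC class I genes lie above 0 at each time, and the lens list lies at 1.82, -4.45 and -0.34.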

How the data were processed

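RNA sequencing of whole mouse retina was deposited as pairwise tables, with 5 samples in D10 and 6 in ND. Per the labels' protocols, stranded poly(A) libraries were read in pairs. The authors used GRCm39 and bcl2fastq, per the submitters' processing notes. For the aligner, counting method and test used, each is not given in the sources used here. Per the file headers, the deposited columns are a larger group mean without a unit (treated as signal), a log2 fold change, and a p-value with its FDR and Bonferroni adjustments, with no value per sample, so depth is unknown and no replicate error could be computed. The deposited FDR p-values equalled Benjamini-Hochberg values of the deposited p-values to within 8.21e-06.

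Genes with a deposited FDR p-value under 0.05 were called. Dividing the absolute log2 value by the quantile of a normal distribution at the p-value gave the implied standard error. A group mean was taken as fixed where 2 tables that share the group gave it within a relative 1e-06. Alternatives were other thresholds and sizes, leaving out low levels, predicted names or other tissues, adjusting over every gene with a p-value, and recentring by -0.0148, the median log2 of the upper 40% of levels. The calculations were tested on simulated data. Python 3.11.15, pandas 2.3.3, scipy 1.17.1, statsmodels 0.14.6 and matplotlib 3.10.9 were used.

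The gene lists and the rule for named genes were chosen with earlier results of these data known. Named were the 25 largest rises and 25 largest falls among called genes in the upper 60% of levels, the 20 smallest p-values in each direction, up to 8 called and 4 highly expressed uncalled members of each list, the genes at the threshold and a few fixed genes, and a few of these are not reported here. Promoter windows came from RefSeq (GRCm38.p6), and no coordinate was converted between builds.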

Additional observations from a re-analysis of the deposited data

Results flagged for a closer look

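A second deposited comparison set D10 against 10-week diabetic retina in which microglia had been depleted and had returned (D10 repopulated), with the same D10 samples, and called 75 of 16826 tested genes. Of the 278 reported genes that the rule names and that were called between D10 and ND, 20 were also called there, 14 higher in D10 and 6 lower. They are listed because a deposited test that compares both diabetic groups directly gave them an adjusted p-value under 0.05. The same D10 samples enter both comparisons, so a chance deviation of D10 favours a gene in each. The count of these genes and its split by direction are therefore not separate results. All values are log2 fold changes of D10 over D10 repopulated in the authors' deposited table.

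Several genes of microglia and other myeloid cells were higher in D10 than in D10 repopulated. The complement genes C1qa, C1qb and C1qc stood at 1.34, 1.12 and 1.12, the integrin gene Itgam at 1.28, the protease gene Ctss at 1.48 and the lysosomal gene Gpnmb at 1.30. The chemokine gene Ccl12 stood at 1.86. Among acute phase and vessel genes, Saa3 stood at 1.24, Steap4 at 0.95, Cp at 0.85 and Vcam1 at 0.73. B2m stood at 0.58 and the growth factor gene Fgf2 at 0.53. The lens gene Lgsn stood at 3.97, and it was also higher in repopulated ND than in ND, at 6.08.

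Among the genes lower in D10 than in D10 repopulated, the interferon-induced chemokine gene Cxcl9 stood at -2.98 and the cell cycle inhibitor gene Cdkn1a at -0.54. Hemoglobin genes of red cells stood at -3.84 for Hbb-bs, -3.87 for Hbb-bt, -3.81 for Hba-a1 and -3.78 for Hba-a2. Titles number the D10 samples from 2979 to 2983 and the D10 repopulated samples from 3031 to 3035, so their treatment and this numbering cannot be told apart.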

How the results depend on the processing

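The count of genes higher in D10 (968) was 741 at an FDR p-value under 0.01, 1148 under 0.10, 649 at 2-fold or more, 949 when p-values were adjusted over every gene that had one, 945 without predicted names, 961 without genes of other tissues and 1011 after recentring. It was 475 without the lowest 40% of levels and 407 with Bonferroni adjustment. The count of genes lower (244) was 130 under 0.01, 376 under 0.10, 68 at 2-fold or more, 159 without the lowest 40% of levels and 38 with Bonferroni adjustment, and between 215 and 243 under the other alternatives. By construction, stricter thresholds and fewer genes pass fewer calls, and the looser threshold more. Of 66 list counts, 49 stayed within 1.5 times at a threshold of 0.01. The other 17 were, with their count at 0.05 after each, Müller glia higher 2 (4), T and NK cells 1 (3), neutrophils 3 (5), rods 1 (2), chaperones lower 2 (4), cholesterol lower 2 (10), antioxidant 3 (6), cornea 2 (4), lens 0 (2), and 0 (1) for matrix lower, cones lower, bipolar higher, amacrine higher, synapse lower, zinc lower, oxidative phosphorylation lower and histones lower. Recentring left 64 list counts within 1.5 times and gave 0 for matrix lower and for histones lower. Of 510 named genes 497 kept direction and call after recentring. Recomputed from the authors' values, the calls of Alas2 (-2.78, adjusted p = 0.0513), Gpr101 (-1.16, 0.0543) and H2bc21 (-0.42, 0.0505) were lost, and those of Cxcl16 (0.55, 0.0426) and Pfkfb2 (0.42, 0.0444) were gained. No called gene changed direction, while 8 genes that were not called crossed from just below 0 to just above it on recentring, to log2 values of 0.011 for Acta2, 0.013 for Csf1r, 0.0060 for Ctsb, 0.014 for Dkk3, 0.014 for Lifr, 0.013 for Oxct1, 0.015 for Pdia3 and 0.0092 for Tgfbr1. The log2 ratio of the group means, where both were fixed, lay within 1 implied standard error of the deposited value for 60 of 67 named genes. No paired analysis was possible because the tables hold no values per sample, and for the same reason leaving out replicates was not run. Without depth or replicate values, counts below a level of 0.285 rest on a median standard error of 0.69 log2.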

Other observations

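Among called genes in the upper 60% of levels, some of the 25 largest falls in D10 belonged to genes in no list, with functions outside those described for the vessels, glia and immune cells. Dnai4, a ciliary dynein subunit gene, had a mean of at most 6.56 in D10 and 12.3 in ND, and fell by 0.92 ± 0.13 log2 in the authors' deposited table (FDR p = 4.39e-10). Spc25, a gene of the kinetochore, had at most 36.8 in D10 and 62.0 in ND, and fell by 0.86 ± 0.20 in the authors' deposited table. Stc1, which encodes the secreted glycoprotein stanniocalcin, had at most 1.63 in D10 and 3.07 in ND, and fell by 0.92 ± 0.19 in the authors' deposited table. The matrix protein genes Sned1 and Spon2 had log2 fold changes of -1.48 ± 0.33 and -1.44 ± 0.44 in the authors' deposited table. In repopulated ND against the same ND samples, the authors' deposited table gives -0.34 for Dnai4, 0.05 for Spc25, -0.33 for Stc1 and -0.08 for Sned1.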
